A study of Mus musculus with 10 samples.

Results

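The integrin chains expressed by a mammary carcinoma clone were followed across hairpins that lower a secreted protease inhibitor. The members are 10 genes, Itga2, Itga3, Itga5, Itga6, Itgav, Itgb1, Itgb4, Itgb5, Itgb6 and Itgb8, taken by symbol from a table of 23479 gene entries, and all 10 were found. They are 5 α chains and 5 β chains, and all 10 passed the filter on low values, a mean of at least 10 normalized counts over the libraries. A rise of Itgb6 with the Slpi hairpins was known when the members were chosen. The values of Itgb6 in comparisons that use the Slpi hairpins are therefore given as a description, with no test. Tests of Itgb6 between the Serpine2 hairpins and shRenilla use the same control libraries as that rise, so they are not independent of the choice.

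Total RNA was sequenced from 4T1-T, a clonal derivative of the mouse mammary carcinoma line 4T1 that goes back to a single cell. The 10 libraries form 5 groups of 2, named A and B, and every group carries a hairpin. The control hairpin targets Renilla luciferase, a gene that mouse cells lack (shRenilla). A pair of hairpins targets Serpine2, a secreted inhibitor of thrombin and urokinase (shSerpine2-1 and shSerpine2-2), and another pair targets Slpi, a secreted inhibitor of neutrophil elastase (shSlpi-1 and shSlpi-2). All groups are thus derivatives of 1 clone of 1 tumour line, without an unmodified line. The labels do not state whether A and B are separate cultures; the p-values therefore reflect the variation between libraries only, and that variation may be technical.

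Integrins are receptors at the cell surface made of 1 α and 1 β chain, and the pairing sets which matrix protein is bound. In epithelium, the β1 chain pairs with the α2 chain to bind collagen, with the α3 and α6 chains to bind laminins, and with the α5 chain to bind fibronectin. The α6 chain also pairs with the β4 chain in hemidesmosomes, the junctions that fix keratin filaments to the basement membrane. The αv chain pairs with the β1, β3, β5, β6 or β8 chain and binds ligands with an RGD motif, such as fibronectin, vitronectin and osteopontin. The αvβ6 and αvβ8 receptors are best known for releasing active TGF-β from its latent complex, and αvβ6 is largely restricted to epithelial cells.

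Depth ran from 15877431 to 24026620 reads per library, and reads on single members ran from 125 to 385 for Itgb6, from 13931 to 23973 for Itgb1 and from 2 to 21 for Itgb8. Both targets were low in their own libraries. Serpine2 had 3256 and 3145 normalized counts in shRenilla, 128 and 139 in shSerpine2-1, and 489 and 514 in shSerpine2-2. Slpi had 1189 and 1313 in shRenilla, 145 and 147 in shSlpi-1, and 60.9 and 75.8 in shSlpi-2. Serpine2 also lay lower with both Slpi hairpins (1331 to 1731), and Slpi lay lower in shSerpine2-1 (326 and 414) but overlapped the controls in shSerpine2-2 (1111 and 1218). Epithelial markers were present at summed levels of 21140 to 31095, with 6 of 6 at a mean of at least 10. Of the markers of other cells, 2 of 7 for leukocytes, 1 of 4 for platelets, 0 of 4 for endothelium and 1 of 5 for fibroblasts reached that mean, and Ptprc, the pan-leukocyte marker, stayed at 0 to 7.06. The shSlpi-2 libraries stood apart, with 6.88% and 6.91% of reads on the ribosomal precursor Rn45s against 0.881% to 1.96% elsewhere, the most genes with a read, and the widest difference between A and B. For genes called changed between the Slpi hairpins and shRenilla, the shSlpi-1 value is given where it lost the call or moved the value by over 1.5 times.

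Promoter sequence is shown for 3 members on which the results below turn, Itgb6 and Itgb1, higher in all knockdown libraries than in the controls, and Itga2, lower in 7 of 8. The sequences are RefSeq's on GRCm38.p6, which has entries for 8 of the 10 members. They are written 5′ to 3′ on the strand of the gene and end where the gene begins in the GENCODE annotation. Capitals mark matches to the motifs named after them.
Itgb6, chr2:60722644-60722853, minus strand: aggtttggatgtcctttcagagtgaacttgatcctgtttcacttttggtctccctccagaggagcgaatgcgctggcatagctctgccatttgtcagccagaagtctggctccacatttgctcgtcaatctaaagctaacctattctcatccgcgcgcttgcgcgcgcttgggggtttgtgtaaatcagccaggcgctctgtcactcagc
Itgb1, chr8:128685404-128685653, plus strand: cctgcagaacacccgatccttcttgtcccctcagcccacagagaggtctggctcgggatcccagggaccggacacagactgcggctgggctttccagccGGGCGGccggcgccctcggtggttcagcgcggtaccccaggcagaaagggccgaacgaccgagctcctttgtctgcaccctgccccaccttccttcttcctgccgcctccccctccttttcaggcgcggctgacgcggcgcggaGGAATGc
Itga2, chr13:114932101-114932350, minus strand: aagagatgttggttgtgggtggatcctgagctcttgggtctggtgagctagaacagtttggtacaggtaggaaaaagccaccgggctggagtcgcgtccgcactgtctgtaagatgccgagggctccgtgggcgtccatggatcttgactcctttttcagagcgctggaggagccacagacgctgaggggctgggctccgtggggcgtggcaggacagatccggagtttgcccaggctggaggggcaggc
Motifs were searched on both strands in the 250 bases before each start site, with the letters TGANTCA for AP-1 and GGAATG for TEAD factors. The GC box was searched as GGGCGG. The site of the TATA-binding protein was searched as TATAAA, and that of STAT factors as TTCNNNGAA. Of 32851 such windows, 6.75% held the AP-1 letters, 12.6% those of TEAD, 32.7% the GC box, 12.4% the TATA box and 7.02% the STAT letters. The Itgb1 window held 1 TEAD match at position -7 and 1 GC box at position -151 from the start site, which do not overlap. None of the 5 motifs occurred in the Itgb6 or Itga2 window. In the other members, the Itgb5 window held 3 GC boxes, the Itga5 window 2, and the Itga3 windows 3 and 1 at its 2 start sites. These matches are letters in a window and say nothing of binding.

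Per kilobase of coding transcript, a scale on which genes can be compared, the β1 chain was the most abundant member in every group. In shRenilla, Itgb1 stood at 4046 ± 31.7 normalized counts per kb (SD, n = 2 here and in each group below). Itga6 (2636 ± 10.5) and Itga3 (2630 ± 147), the laminin-binding partners of the β1 chain, came next and overlapped each other. Itgav followed at 1390 ± 20.6, then Itga2 at 419 ± 2.36, Itga5 at 341 ± 8.48 and Itgb4 at 225 ± 8.21. The αv partners other than β1 were the least abundant members, with Itgb5 at 105 ± 11.1, Itgb6 at 28.1 ± 0.733 and Itgb8 at 1.84 ± 1.12. Apart from Itga6 and Itga3, neighbours in this order did not overlap between the shRenilla libraries. The order of means was the same in every group except for that pair, since Itga3 stood above Itga6 in all 4 knockdown groups.

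**Figure D1:**
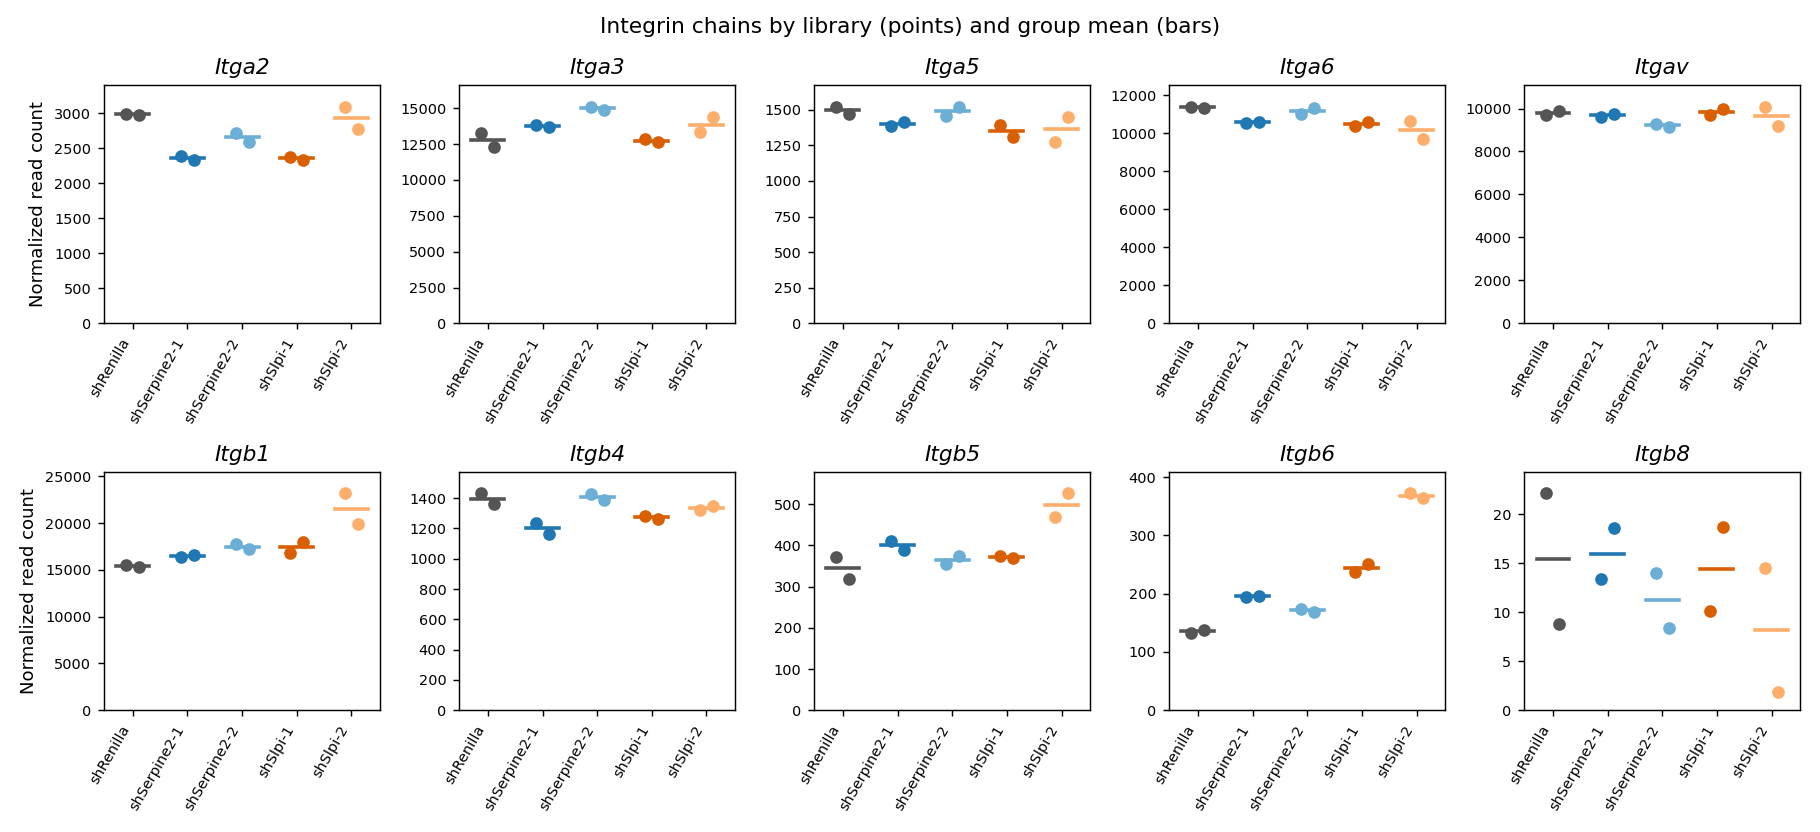
Normalized counts of the 10 integrin chains in each of the 10 libraries, coloured by group, with 1 panel a gene, a linear axis from 0 and a bar at each group mean. Itgb6 separates all 5 groups, from 133 in shRenilla to 372 in shSlpi-2, while Itgav stays between 9141 and 10088 and Itgb8 lies near 1.89 to 22.1.

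Against shRenilla, the Serpine2 hairpins raised Itga3 and Itgb6 and lowered Itga2, and the Slpi hairpins raised Itgb1 and Itgb5 and lowered Itga2 and Itga6, beside the rise of Itgb6. The mean of both Serpine2 hairpins gave 3 members changed of 10 (2 up, 1 down), where 21.5% of all 12299 genes tested changed. That count includes Itgb6, whose test shares its controls with the known rise. For the Slpi hairpins it was 4 of the 9 members other than Itgb6 (2 up, 2 down), where 34.8% of all genes changed; Itgb6 is left out of that count because its rise was known. The median absolute log2 difference of the members was 0.12 for Serpine2 and 0.16 for Slpi, against 0.14 and 0.17 over all genes. Serpine2 hairpins differed from Slpi hairpins in 2 of those 9 members (1 higher, 1 lower), where 17.5% of all genes did. Both comparisons with shRenilla use the same control libraries, so their values below are given side by side and are not independent of each other. Each hairpin line was also treated as 1 unit, so that hairpins rather than libraries are the replicates. This left 0 members and 0 of all genes past the threshold of the same limma test in each of these 3 comparisons. An unadjusted p under 0.05 was then found for 0, 1 and 1 members. These counts include Itgb6, whose rise with the Slpi hairpins was known, so they lend that rise no support.

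Itgb1 encodes the β1 chain, the shared partner of all the α chains among the members. Its normalized counts were 15521 and 15350 in shRenilla, 16348 and 16586 in shSerpine2-1, 17787 and 17179 in shSerpine2-2, 16846 and 17955 in shSlpi-1, and 23172 and 19851 in shSlpi-2. All 8 knockdown libraries lay above both control libraries, and both shSlpi-2 libraries lay above the rest. On the log2 scale Itgb1 rose by 0.32 with the Slpi hairpins (SE 0.05, adjusted p = 1.68e-04). Most of that rise lay in shSlpi-2, with 0.47 (adjusted p = 1.12e-05) against 0.17 (adjusted p = 0.059) in shSlpi-1, which did not pass beside the shSlpi-2 libraries and passed without them (adjusted p = 3.28e-04). With the Serpine2 hairpins the difference was 0.14 (SE 0.05, adjusted p = 0.0729), which did not pass, and the difference between the 2 targets was -0.19 (SE 0.04, adjusted p = 0.00653). That last difference rests on shSlpi-2, since it was -0.04 (adjusted p = 0.452) without both shSlpi-2 libraries. The share of Rn45s reads was also highest in shSlpi-2, and its part in the level of Itgb1 was not tested.

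Itgb5 encodes the β5 chain, which with αv forms a vitronectin receptor. It had 371 and 320 normalized counts in shRenilla, 410 and 390 in shSerpine2-1, 356 and 374 in shSerpine2-2, 375 and 368 in shSlpi-1, and 470 and 526 in shSlpi-2. The shSlpi-2 libraries were the highest, those of shSerpine2-1 came next and overlapped no other group, and shRenilla overlapped shSerpine2-2 and shSlpi-1. It rose with the Slpi hairpins by 0.32 (SE 0.08, adjusted p = 0.00604), and the Serpine2 difference of 0.15 (SE 0.08, adjusted p = 0.209) did not pass. The Slpi rise was 0.11 (adjusted p = 0.395) without both shSlpi-2 libraries and 0.21 (adjusted p = 0.151) without library B of shRenilla, so it depends on those libraries.

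Itgb6 encodes the β6 chain of the TGF-β-activating receptor αvβ6 and is a gene of chromosome 2 (60598292 to 60722643, GRCm38). Its normalized counts were 133 and 138 in shRenilla, 195 and 196 in shSerpine2-1, 174 and 169 in shSerpine2-2, 238 and 251 in shSlpi-1, and 372 and 364 in shSlpi-2. No 2 groups overlapped, and the control libraries were the lowest of the 10. The Serpine2 hairpins raised it by 0.44 (SE 0.09, adjusted p = 0.00282), in 4 of 4 libraries. That test shares its controls with the known Slpi rise, so it is not independent of the choice of Itgb6. The mean difference with the Slpi hairpins was 1.14 (SE 0.09), with 0.85 for shSlpi-1 alone and 1.44 for shSlpi-2 alone, a mean of 1.81 times the control level in shSlpi-1 and 2.72 times in shSlpi-2. Between the targets, Itgb6 was lower by 0.71 with the Serpine2 hairpins (SE 0.07). Across groups, the mean level of Itgb6 ran in the reverse order of Slpi itself, whose means were 1251 in shRenilla, 1164 in shSerpine2-2, 370 in shSerpine2-1, 146 in shSlpi-1 and 68.3 in shSlpi-2. The first 2 of these overlapped for Slpi. Itgb6 was not alone in this, since the means of Itga6 ran in the same order as Slpi, with some neighbouring groups overlapping. How many of all genes follow such an order was not counted. The summed epithelial markers moved in nearly the order of Itgb6, from 21140 to 21757 in shRenilla up to 31016 to 31095 in shSlpi-2, with shSerpine2-2 (26485 to 26702) above shSerpine2-1 (25193 to 25592), and their part in the level of Itgb6 was not tested.

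**Figure D2:**
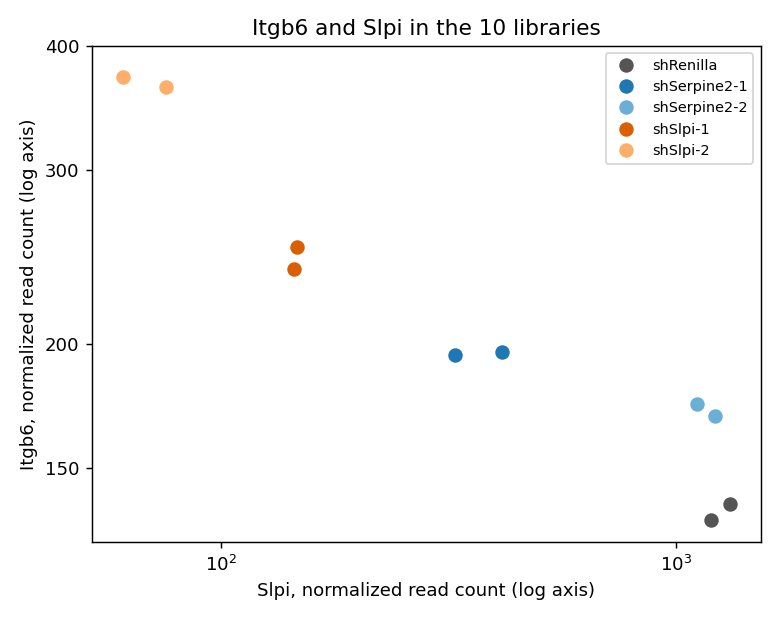
Normalized counts of Itgb6 (y axis) against those of Slpi (x axis) in the 10 libraries, coloured by group, both axes being logarithmic. The libraries with the least Slpi, 60.9 and 75.8 in shSlpi-2, have the most Itgb6, 372 and 364, and shRenilla has the least Itgb6; no correlation is given because the groups form separate clusters.

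Itgb4, whose chain joins α6 in hemidesmosomes, and Itgb8, the other β chain known for TGF-β activation, did not change against shRenilla for either target. Itgb4 had 1432 and 1360 normalized counts in shRenilla, 1237 and 1162 in shSerpine2-1, 1429 and 1385 in shSerpine2-2, 1285 and 1261 in shSlpi-1, and 1321 and 1347 in shSlpi-2. Only shSerpine2-1 and shSlpi-1 and shSlpi-2 lay below both control libraries, and the differences were -0.10 for Serpine2 (adjusted p = 0.16) and -0.10 for Slpi (adjusted p = 0.148). Itgb8 ranged from 1.89 to 22.1 normalized counts, with 22.1 and 8.81 in shRenilla, so any change was not detectable at this depth (Slpi difference -0.60, 95% interval -1.75 to 0.56). Leaving out library A of shSlpi-2, which had 14.5, turned that difference to -1.20 (adjusted p = 0.0258), a value that then rests on the 1.89 of library B.

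Itga2, a collagen receptor α chain on chromosome 13 (114833081 to 114932100, GRCm38), fell with the mean of either pair of hairpins. It had 2992 and 2968 normalized counts in shRenilla, 2395 and 2332 in shSerpine2-1, 2721 and 2584 in shSerpine2-2, 2374 and 2332 in shSlpi-1, and 3092 and 2770 in shSlpi-2. Libraries of the first 3 knockdown groups lay below both controls, whereas those of shSlpi-2 lay on either side of them. It fell by 0.25 with the Serpine2 hairpins (SE 0.05, adjusted p = 0.00191). With the Slpi hairpins the fall by 0.18 (SE 0.05, adjusted p = 0.00817) combined -0.34 in shSlpi-1 with -0.03 (adjusted p = 0.741) in shSlpi-2. Without library A or library B of shRenilla the Slpi fall no longer passed, with adjusted p-values of 0.0723 and 0.0626.

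Of the laminin-binding α chains, Itga3 rose with the Serpine2 hairpins and Itga6 fell with the Slpi hairpins, and neither passed in the other comparison. Itga3 had 13288 and 12278 normalized counts in shRenilla, 13815 and 13697 in shSerpine2-1, 15112 and 14874 in shSerpine2-2, 12866 and 12624 in shSlpi-1, and 13338 and 14378 in shSlpi-2. The Serpine2 libraries all lay above both controls, and those of shSlpi-1 lay between them. Its Slpi difference was 0.06 (adjusted p = 0.341). It rose by 0.17 with the Serpine2 hairpins (SE 0.04, adjusted p = 0.0115), which became 0.11 (adjusted p = 0.236) without library B of shRenilla, the lower of the controls. Against the Slpi hairpins Itga3 was higher by 0.11 (SE 0.04, adjusted p = 0.0385), a call lost in 9 of 21 alternatives.

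Itga6 had 11393 and 11329 in shRenilla, 10545 and 10601 in shSerpine2-1, 10986 and 11302 in shSerpine2-2, 10373 and 10563 in shSlpi-1, and 10631 and 9669 in shSlpi-2. All 8 knockdown libraries lay below both controls. It fell by 0.14 with the Slpi hairpins (SE 0.04, adjusted p = 0.016), and the Serpine2 difference was -0.07 (adjusted p = 0.288). In shSlpi-1 alone it was -0.12 (adjusted p = 0.111). The Slpi fall did not pass without library A of shRenilla (adjusted p = 0.103), without its library B (0.0917) or with only the compared groups in the fit (0.063). The annotation has 4 genes that overlap Itga6, 2 that overlap Itgav and 1 each that overlap Itga5 and Itgb4, and whether counting used strand is not given in the sources, so their reads may not be fully separable.

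Itga5, the fibronectin receptor chain, and Itgav, the partner of the β5, β6 and β8 chains, did not change against shRenilla for either target. Itga5 had 1521 and 1469 normalized counts in shRenilla, 1385 and 1411 in shSerpine2-1, 1458 and 1518 in shSerpine2-2, 1392 and 1311 in shSlpi-1, and 1273 and 1449 in shSlpi-2. All 4 Slpi libraries lay below both controls, with a difference of -0.14 (adjusted p = 0.0628) that passed without library B of shSlpi-2 (-0.19, adjusted p = 0.00254). Itgav ran from 9141 to 10088 over all libraries. Its difference was -0.05 for Serpine2 (95% interval -0.14 to 0.04) and -0.01 for Slpi (95% interval -0.10 to 0.08), so the αv transcript differed by little in the same libraries in which Itgb6 moved most.

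**Figure D3:**
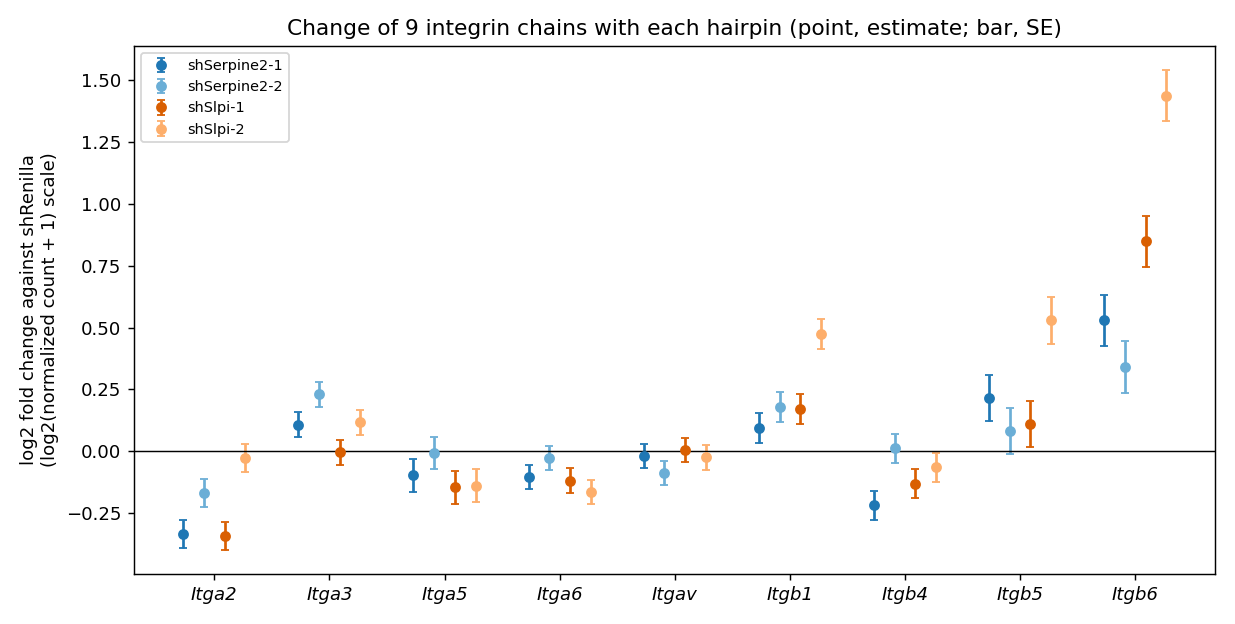
Log2 difference of 9 integrin chains against shRenilla for each hairpin, as limma's estimate (point) and its SE (bar); Itgb8 is left out because of its low counts. Itgb6 lies above 0 with every hairpin, from 0.34 in shSerpine2-2 to 1.44 in shSlpi-2, and Itga2 lies at -0.33, -0.17 and -0.34 in the first 3 and at -0.03 in shSlpi-2.

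Single hairpins changed few members, and the hairpins of a pair did not always match. With shSerpine2-1, 3 members changed, Itga2 (-0.33), Itgb4 (-0.22) and Itgb6 (0.53), where 10.5% of all genes did. With shSerpine2-2, 4 members changed, Itga2 (-0.17), Itga3 (0.23), Itgb1 (0.18) and Itgb6 (0.34), where 27.5% of all genes did. Both counts include Itgb6, tested against the control libraries of its known rise. Of these calls, Itgb4 in shSerpine2-1 was lost when any of the 4 compared libraries was left out, as were Itga2, Itgb1 and Itgb6 in shSerpine2-2, and Itga3 in shSerpine2-2 was lost without library B of shRenilla (0.17, adjusted p = 0.0668). With shSlpi-1, Itga2 changed (-0.34, adjusted p = 7.11e-04) of the 9 members other than Itgb6, beside 17.5% of all genes. Without library A, library B or both of shSlpi-2, Itga5 (-0.15), Itga6 (-0.12) and Itgb1 (0.17) also changed in shSlpi-1, with the same differences and adjusted p-values of 3.28e-04 to 0.0369, since all groups share the spread. With shSlpi-2 it was 3 of those 9, Itga6 (-0.16), Itgb1 (0.47) and Itgb5 (0.53), beside 42.4% of all genes; the fall of Itga6 did not pass without library A (adjusted p = 0.066) or B (0.0564) of shRenilla or without library B of shSlpi-2 (0.0649).

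Set against each other, the Serpine2 hairpins differed in 1 member, Itgb4, lower by 0.23 in shSerpine2-1 (SE 0.06, adjusted p = 0.0153), where 14.7% of all genes differed. That call was lost when any of the 4 Serpine2 libraries was left out, and Itga2 (-0.17, adjusted p = 0.0589) also passed in 6 of 20 alternatives, the replicate block among them (adjusted p = 0.0473). The Slpi hairpins differed in 4 members, all of them lower in shSlpi-1, where 26.1% of all genes differed. These were Itga2 by -0.31 (SE 0.06, adjusted p = 8.26e-04), Itgb1 by -0.30 (SE 0.06, adjusted p = 0.00174), Itgb5 by -0.42 (SE 0.09, adjusted p = 0.00408) and Itgb6 by -0.59 (SE 0.10). That count includes Itgb6, whose rise with the Slpi hairpins was known, so its difference here is a description with no test. Slpi was left at 68.3 normalized counts in shSlpi-2 and 146 in shSlpi-1, and Rn45s took 6.88% and 6.91% of reads in shSlpi-2 against 1.89% and 1.96% in shSlpi-1, so depletion of the target, the hairpin and the libraries' make-up cannot be told apart here.

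Because each α chain needs a β chain, members were also set against their partners, per kilobase. In shRenilla there were 2.02 Itgb6 transcripts per 100 of Itgav, and 2.97 in shSerpine2-1, 2.73 in shSerpine2-2, 3.65 in shSlpi-1 and 5.61 in shSlpi-2. Shares were taken of the summed β3, β5, β6 and β8 transcripts, the partners of αv other than the far more abundant β1. Itgb6 made up 15.3% ± 1.41 in shRenilla, 20.7% ± 0.555 in shSerpine2-1, 16.0% ± 0.478 in shSerpine2-2, 25.4% ± 0.253 in shSlpi-1 and 28.3% ± 1.49 in shSlpi-2. The shRenilla and shSerpine2-2 libraries overlapped in that share, although Itgb6 itself did not. The share of Itgb3 was 33.6% in shSerpine2-2 and 15.4% to 17.1% in the other 3 knockdown groups, against 26.7% in shRenilla. Itgb5 held the largest share in every group, from 49.8% to 62.0%, and Itgb8 stayed under 1% on average.

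For the β1 chain the ratio is given the other way round, as α transcripts per Itgb1 transcript. A fall here thus means more Itgb1 for each α transcript, the same direction as for Itgb6 and Itgav. The 5 α chains together held 1.85 and 1.82 transcripts per Itgb1 transcript in shRenilla, 1.70 and 1.68 in shSerpine2-1, 1.65 and 1.71 in shSerpine2-2, 1.60 and 1.51 in shSlpi-1, and 1.21 and 1.39 in shSlpi-2. No knockdown library reached the shRenilla values. Itga6 per 100 Itgb1 was 65.2 ± 0.251 in shRenilla and 41.9 ± 1.77 in shSlpi-2, and Itga2 per 100 Itgb1 lay at 10.4 ± 0.0229 in shRenilla and at 7.27 to 8.14 in the knockdown groups. Itgb4 per 100 Itga6, the hemidesmosome pair, stayed between 7.88 and 9.15 in every group. These ratios describe transcripts, not the receptors at the surface, and no test was made on them.

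**Figure D4:**
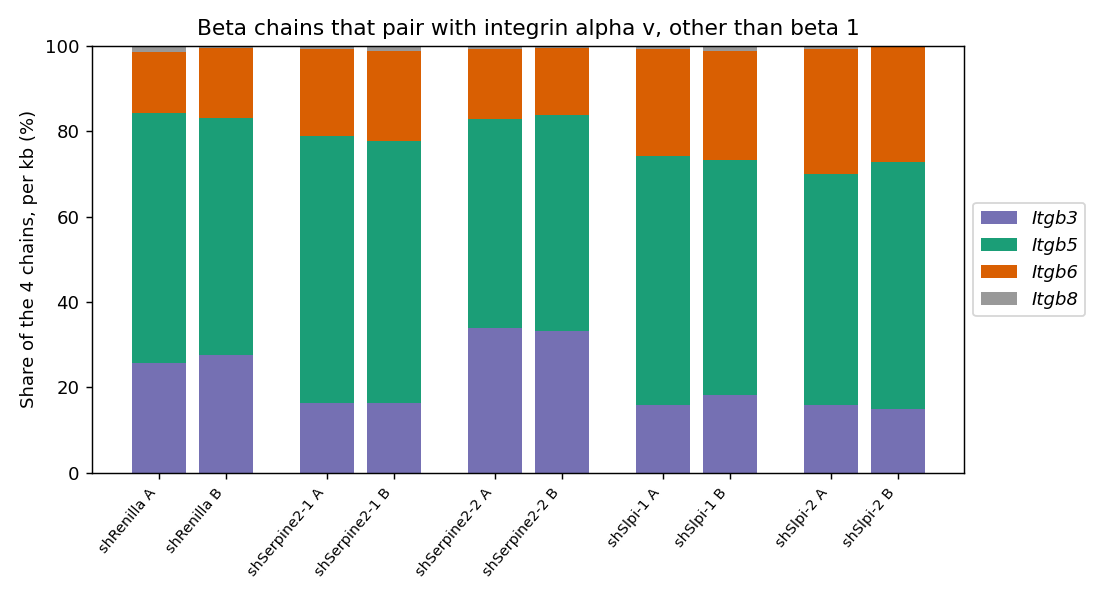
Share of Itgb3, Itgb5, Itgb6 and Itgb8 in their summed normalized counts per kilobase, in percent, as 1 stacked bar for each library. Itgb6 goes from 14.3% and 16.3% in the shRenilla libraries to 29.3% and 27.2% in shSlpi-2, while Itgb3 is highest in shSerpine2-2, at 33.9% and 33.2%.

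Of 17 integrin chains outside the members, 8 had a mean under 10 normalized counts and were not tested, among them the leukocyte chains Itgal, Itgam and Itgax, with at most 21.8 in any library. Of the 9 tested, 1 rose and 2 fell with the Serpine2 hairpins, and 1 rose and 4 fell with the Slpi hairpins. Over all genes tested, 10.7% rose and 10.8% fell with Serpine2 hairpins, and 16.5% rose and 18.3% fell with Slpi hairpins. The collagen-binding Itga1 had 363 and 382 normalized counts in shRenilla, 222 and 223 in shSerpine2-1, 278 and 275 in shSerpine2-2, 241 and 236 in shSlpi-1, and 159 and 134 in shSlpi-2. It fell by 0.59 with Serpine2 and by 0.99 with Slpi hairpins (-0.64 in shSlpi-1 alone), and Itga8, an RGD-binding β1 partner, fell by 0.70 and 0.82. Itgb3, the β chain of the vitronectin receptor αvβ3, split the Serpine2 hairpins, with 287 and 281 in shRenilla, 189 and 183 in shSerpine2-1, and 435 and 432 in shSerpine2-2. Its Slpi difference was -0.38 (SE 0.09, adjusted p = 0.00404), which was -0.23 (adjusted p = 0.0869) in shSlpi-2 alone. Itga2b, the platelet chain, rose by 1.22 with Slpi hairpins from a mean of 7.52 to 18.4 and 19.1, close to the floor of 3 reads (2.30 to 3.48 normalized counts), and this did not pass without library B of shRenilla (adjusted p = 0.091). Itgb7, a chain of lymphocyte homing receptors, rose by 0.60 with the Serpine2 hairpins, a call lost when any of the 6 compared libraries was left out. The fall of Itgb2, the leukocyte β chain (526 to 716 over all libraries), by 0.19 with Slpi hairpins was lost without library A (adjusted p = 0.359) or B (0.069) of shRenilla and in several further alternatives. In shSlpi-1 alone Itgb2 was at -0.31 (adjusted p = 0.018), and in shSlpi-2 at -0.08 (adjusted p = 0.464). Running the alternatives on these further chains was decided after seeing the data.

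Genes around the integrins were read from 8 lists. In the main fit, 10.7% of all genes rose and 10.8% fell with Serpine2 hairpins, and 16.5% rose and 18.3% fell with Slpi hairpins. Beside each Slpi count stands that without both shSlpi-2 libraries, an alternative chosen after seeing the data, in which 27.0% of all genes changed with the Slpi hairpins. Of 7 laminin chains tested, 3 rose and 0 fell with either target, and 2 rose for Slpi without shSlpi-2. Lamb3, a β chain of epithelial laminin, rose by 0.24 with Serpine2 and by 0.48 with Slpi hairpins. That mean joins 0.89 in shSlpi-2 with 0.07 (adjusted p = 0.507) in shSlpi-1 for Lamb3, whose Serpine2 values were 0.11 and 0.37. Lama3 rose by 0.16 with Slpi hairpins and showed 0.08 (adjusted p = 0.297) with Serpine2 hairpins. In shSlpi-1 alone Lama3 was at 0.15 (adjusted p = 0.0951), which did not pass. Lamc1 rose by 0.19 with Serpine2 hairpins. Of 8 hemidesmosome genes, some of which are laminin chains, 4 rose and 0 fell for Serpine2 and 5 rose and 0 fell for Slpi, with or without shSlpi-2. The basal keratin Krt14 went from 117 ± 3.72 in shRenilla to 218 ± 2.36 in shSerpine2-1, 255 ± 15.3 in shSerpine2-2, 315 ± 44.4 in shSlpi-1 and 507 ± 52.0 in shSlpi-2, and Plec, the plakin that links α6β4 to keratin, rose by 0.31 and 0.23, with 0.13 (adjusted p = 0.103) in shSlpi-1. Krt14 is also one of the epithelial markers whose sum was higher in every knockdown group.

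Among 13 RGD-type ligands, 4 rose and 5 fell with the Serpine2 hairpins, and 4 rose and 6 fell with the Slpi hairpins (4 and 7 without shSlpi-2). Spp1, which encodes osteopontin, fell by 0.85 and 1.43, from a mean of 24485 ± 1615 in shRenilla to 7298 ± 204 in shSlpi-2. Dmp1, a bone matrix protein, fell by 1.26 and 1.93. The matricellular proteins Ctgf and Cyr61 rose by 0.40 and 0.37 with Serpine2 and by 0.75 and 0.65 with Slpi hairpins. Among 7 collagen genes, 1 rose and 3 fell for Serpine2, and 0 rose and 3 fell for Slpi (2 without shSlpi-2). Col6a1, Col6a2 and Col4a5 fell with both targets, by 0.34, 1.03 and 0.29 with Serpine2 and by 0.59, 0.87 and 0.45 with Slpi hairpins, and Col4a1 rose by 0.17 with Serpine2 hairpins. In shSlpi-1 alone Col6a1 was at -0.28 (adjusted p = 0.0351) and Col4a5 at -0.14 (adjusted p = 0.244), against -0.90 and -0.76 in shSlpi-2. The Serpine2 hairpins split as well. In shSerpine2-2 alone Col6a1 was at -0.22 (adjusted p = 0.0679) and Col6a2 at -0.50 (adjusted p = 0.132), against -0.46 and -1.56 in shSerpine2-1.

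For latent TGF-β and its response, the pathway of αvβ6, 3 of 19 genes rose and 5 fell with the Serpine2 hairpins, and 3 rose and 9 fell with the Slpi hairpins (4 and 9 without shSlpi-2). Tgfb2, a ligand, rose by 0.29 and 0.58. Its Serpine2 values were 0.48 in shSerpine2-1 and 0.10 (adjusted p = 0.479) in shSerpine2-2. Smad3, a signal transducer of the receptor, fell by 0.21 and 0.41. The co-receptor Tgfbr3 fell by 0.77 with Slpi hairpins, with -0.48 in shSlpi-1 and -1.06 in shSlpi-2, and Pmepa1, a response gene that restrains the pathway, fell by 0.26 with Serpine2 hairpins and showed -0.08 (adjusted p = 0.236) with Slpi hairpins. The Pmepa1 values were -0.27 (adjusted p = 0.00466) in shSlpi-1 and 0.11 in shSlpi-2.

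In the adhesion complex, which links integrin tails to actin, 7 of 36 genes rose and 3 fell with the Serpine2 hairpins. With the Slpi hairpins 4 rose and 8 fell (1 and 8 without shSlpi-2). The tensin Tns3 rose by 0.59 and 0.49, whereas Tns4, a tensin that lacks the actin-binding part, fell by 0.24 and 0.76. Rap1a, a small GTPase that activates integrins through talin, fell by 0.38 and 0.39, and Bcar1, a docking protein of focal adhesions, rose by 0.29 with Slpi hairpins. That rise of Bcar1 was 0.48 in shSlpi-2 and 0.09 (adjusted p = 0.396) in shSlpi-1. Tns4 ranged from 18893 ± 111 in shRenilla to 10286 ± 381 in shSlpi-2, with 18825 ± 285 in shSerpine2-2.

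Among 12 membrane partners, 2 rose and 3 fell with the Serpine2 hairpins and 3 rose and 1 fell with the Slpi hairpins (2 and 2 without shSlpi-2). Cd47, the partner of αvβ3 and thrombospondin receptor, fell by 0.25 and 0.45, and Slc3a2, the heavy chain of an amino acid transporter that binds β1, rose by 0.30 and 0.21. In shSlpi-1 alone Cd47 was at -0.25. Of 19 trafficking genes, 1 rose and 4 fell with the Serpine2 hairpins and 4 rose and 6 fell with the Slpi hairpins (4 and 8 without shSlpi-2). Dab2, a clathrin adaptor for β1, fell by 0.24 and 0.67, and Rab21, a GTPase that binds α chain tails, fell by 0.20 and 0.22. Median differences of these lists lay between -0.31 and 0.19 against -0.0014 and -0.0055 over all genes, and nothing is called particular to a list on that ground.

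**Figure D5:**
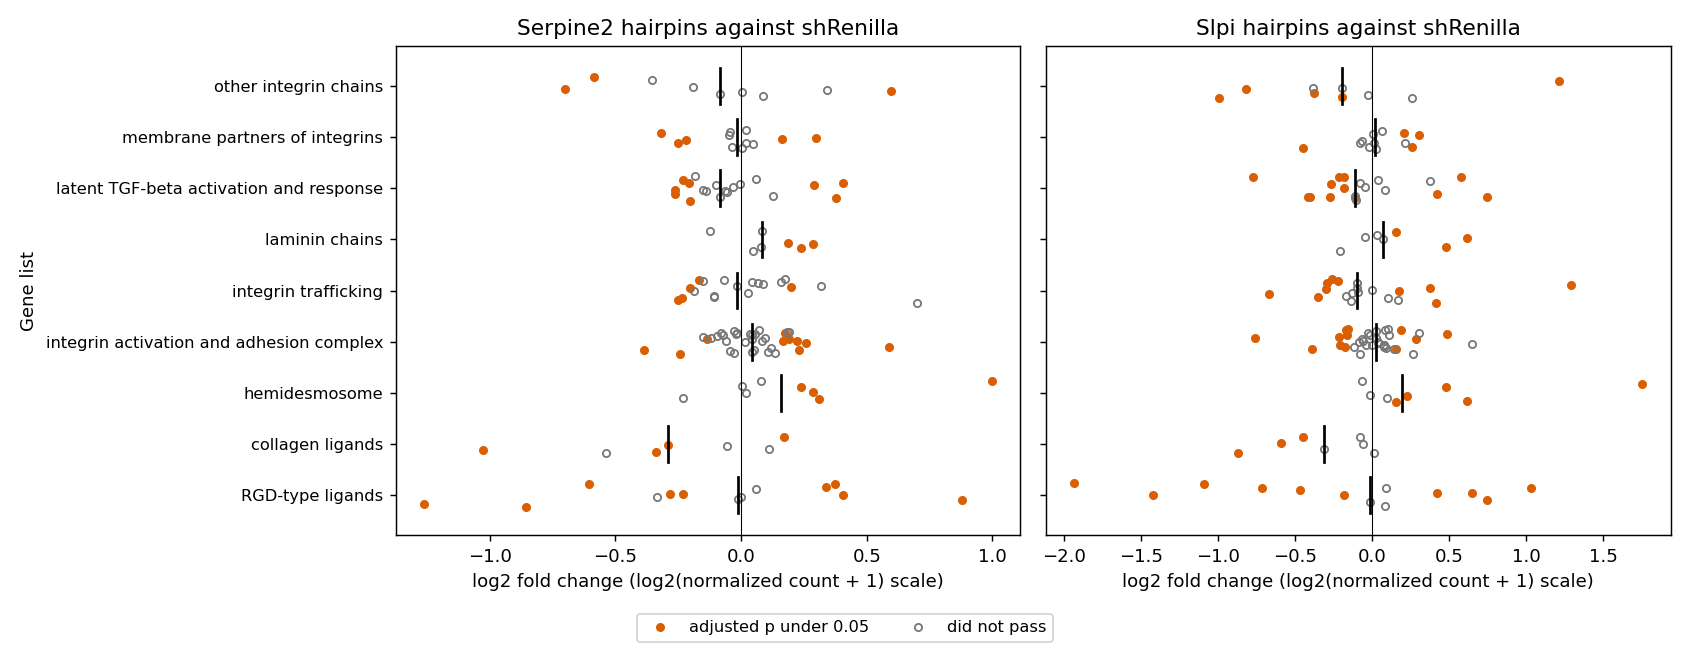
Log2 difference from shRenilla of each tested gene (points) by list, with the Serpine2 hairpins on the left and the Slpi hairpins on the right; filled points passed the test and black bars are list medians. No hemidesmosome gene fell (4 and 5 of 8 rose), while the TGF-β list has more filled points below 0 (5 and 9 of 19) than above it (3 and 3). For all genes tested, 10.7% rose and 10.8% fell on the left, and 16.5% rose and 18.3% fell on the right.

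By likeness over the 10 libraries, the genes closest to Itgb6 were Dsg2, Htr5b, Bhlhe40, Mpzl2 and Ctgf, with Pearson r of log2 values from 0.97 to 0.98. Dsg2 encodes a desmosomal cadherin, and its means were 1281 in shRenilla, 1580 in shSerpine2-1, 1435 in shSerpine2-2, 1611 in shSlpi-1 and 2038 in shSlpi-2. The genes closest to Itgb8, the member with the lowest Slpi difference (-0.60, not passed), were Stk25, Fert2, Golgb1, Zmym6 and Zc3h11a (r from 0.91 to 0.96), a likeness to a gene of few reads. Between members, r was 0.88 for Itgb1 and Itgb6, 0.84 for Itgb5 and Itgb6, and -0.83 for Itga6 and Itgb6. The points share 5 groups and their library sizes, so these are descriptions with no test.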

How the data were processed

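RNA sequencing values were deposited for 10 libraries as log2 values, 1 table for the whole series. Per the submitters' processing notes, the authors used Bowtie2, HTSeq and DESeq on build mm10; versions, annotation and strand: not given in the sources used here. The deposited log2 values start at a floor of 6.733 and look like that package's variance-stabilized output. Undoing this transformation yielded normalized counts, 100% of them a whole number of reads times a library factor (within 0.01 reads), so normalized counts were used in place of the planned test on deposited normalized values. The inversion rests on the values alone. Depth was 15877431 to 24026620 reads, and a count of 0 allows up to 3 reads (2.30 to 3.48 normalized counts), for counting error only.

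Differences are on log2(normalized count + 1), tested with limma 3.58.1 (R 4.3.3, eBayes with trend) over 12299 genes with a mean of at least 10, as 5 group means over 10 libraries that share their spread. P-values are two-sided and Benjamini-Hochberg adjusted over all genes, and "rose", "fell" and "changed" mean an adjusted p under 0.05. This scale understates changes of weak genes. Groups and letters came from titles. The members and lists were chosen with earlier results of these data known. Named were all members, up to 4 changed genes of each list with the smallest p per target, and the 5 genes most like Itgb6 and like the member with the lowest Slpi difference; the values of some are not reported here, and Serpine2, Slpi, Rn45s, Ptprc, Itgal, Itgam and Itgax were named for the checks. Positions and lengths are from GENCODE M21 (GRCm38), and the fit was tested on simulated data. Alternatives changed the pseudocount, filter, scaling, libraries, model and unit of replication. The A minus B differences of 10 pairs of groups correlated at -0.07 to 0.07, so no difference shared by letter was seen. Whether the letters pair libraries is not stated in the labels, and these correlations cannot exclude it.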

Additional observations from a re-analysis of the deposited data

Results flagged for a closer look

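The hairpins of a pair differed from each other in 5 members and 2 further integrin chains by limma's test of that difference. The members counted include Itgb6, whose rise with the Slpi hairpins was known, so its value is a description. Between shSlpi-1 and shSlpi-2 the log2 differences were -0.31 for Itga2, -0.30 for Itgb1, -0.42 for Itgb5 and -0.59 for Itgb6, and outside the members 0.71 for Itga1 and -0.29 for Itgb3 (adjusted p = 0.0499). Itga1 is thus the chain that was higher in shSlpi-1. Between shSerpine2-1 and shSerpine2-2 they were -0.23 for Itgb4 and -1.21 for Itgb3, which fell by 0.60 with the first and rose by 0.61 with the second of these hairpins. The call for Itgb4 was lost when any of the 4 Serpine2 libraries was left out, with adjusted p-values of 0.0511 to 0.153, and that for Itgb1 was 0.0531 with only the 2 Slpi groups in the fit.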

How the results depend on the processing

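Over 21 alternatives, the number of changed members, Itgb6 included, was 3 for Serpine2, 5 for Slpi and 3 for Serpine2 against Slpi with the replicate block as well as without it, and the block changed none of these counts. With hairpin lines as units each of these 3 counts was 0. Counts in this section that use the Slpi hairpins include Itgb6, whose rise was known, so they lend that rise no support. Leaving out 1 library at a time gave 2 to 4 members for Serpine2, 2 (without shRenilla B) to 7 (without shSlpi-2 A) for Slpi, and 2 to 6 (without shSlpi-2 A or B) for Serpine2 against Slpi. For single hairpins the block left the counts of 3 (shSerpine2-1), 4 (shSerpine2-2), 2 (shSlpi-1) and 4 (shSlpi-2) as they were and moved the members differing between the Serpine2 hairpins from 1 to 2. Over the alternatives these counts ran from 2 to 6, 0 (without shRenilla B) to 5, 2 to 5 and 3 to 6, from 0 to 5 between the Serpine2 hairpins and from 3 to 7 between the Slpi hairpins, which differed in 4. No result changed sign while past the threshold. Genes changed with Serpine2 hairpins numbered 2643 of all tested, 1393 and 766 without shRenilla A and B, 1632 with no filter on low values and 4176 with only the compared groups; for Slpi they were 4281, and 2732 and 2401 without those controls; between the targets they ran from 1106 to 3436 when 1 library was left out, against 2157. With no filter on low values the median of all genes was 0.16 for Slpi and -0.11 between the targets. On the deposited log2 values, which flatten low levels, the differences of Itgb6 were 0.23 for Serpine2 and 0.66 for Slpi. Depth limits Itgb8 alone among the members. Itgb1 passed for Serpine2 in 4 alternatives (adjusted p from 1.77e-04). Values of genes other than the members for each hairpin alone were added after the data had been seen. Causes of these changes were not tested.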
